A study of Mus musculus with 8 samples.

Results

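The 10 transcription factors described here are genes known for basal cell identity and for epithelial-mesenchymal transition (EMT): Trp63, Bcl11b, Snai2, Sox10, Sox9, Twist1, Twist2, Zeb1, Zeb2 and Snai1. They were chosen by name, with earlier results of these data known. All 28 array probe sets that the platform's annotation gives to 1 of these symbols were used, among 45101 probe sets on the array. For each gene the probe set of highest mean over all 8 arrays leads, and the rest check it. Of the 10 genes, 9 lay above the filter on dim genes, as did 14598 of 18194 genes in all. Snai1 did not, and it was not tested.

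RNA was measured on 8 Affymetrix arrays of mouse mammary epithelial cells that had been sorted by CD24, CD29 and the LIN markers. The groups are wildtype (WT) LIN-CD24+CD29hi cells, WT LIN-CD24hiCD29lo cells, and the same pair of gates from glands with a germline C/EBPb-/- genotype (KO), with 2 arrays each that the labels call biological replicates. Below, the gates are CD29hi and CD29lo. The cells came from 2 paired sets of glands with 10 mice per group, and the series looked for pathways under the control of the transcription factor C/EBPb in these cells, which it treats as stem and progenitor populations. The deletion was present in every cell of the KO mice and not limited to the epithelium. The age of the mice, the part of Cebpb that was removed, the sort purity and the glands behind each array were not stated in the labels.

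The mammary epithelium has a basal layer of contractile myoepithelial cells and a luminal layer that lines the ducts. CD29 is integrin beta 1, and cells with high CD29 are enriched for the basal layer. p63, the product of Trp63, keeps basal identity in many stratified and glandular epithelia. The Snail, Twist and Zeb families repress E-cadherin and other junction genes during EMT, and they are also active in fibroblasts and other mesenchymal cells. The SoxE factors Sox9 and Sox10 are known for roles in mammary progenitors, and Bcl11b is known from T cells, skin and the mammary basal layer.

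The array medians of the deposited log2 values lay between 5.45 and 5.67, and 64.7% to 71.2% of the probe sets were above a background set per array at 3.84 to 4.41. That background is the 95th percentile, on each array, of 27 control probe sets that target bacterial genes. Cebpb itself had a KO minus WT difference of -3.11 in CD29hi (limma adjusted p = 0.0177) and of -2.95 in CD29lo (adjusted p = 0.0271) on the log2 scale. The deleted stretch being unknown, this compares the signal at 1 probe set. Of 18 basal markers, 14 were higher in CD29hi over both genotypes and 1 was lower. Of 16 luminal markers, 15 were lower in CD29hi and 0 higher. Arrays of 1 group correlated at 0.931 to 0.954 over all probe sets, with KO CD29lo lowest. KO CD29lo replicate 1 correlated more with WT CD29lo replicate 1 (0.95) than with its own replicate (0.931). In all 4 groups the replicate numbered 2 had more fibroblast signal than the one numbered 1, with the larger steps in CD29lo. Values without both CD29lo replicates numbered 2 are given below.

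The members fell into 3 patterns across the gates. Trp63, Bcl11b, Snai2 and Sox10 were higher in CD29hi over both genotypes. Twist2 and Zeb2 were lower in CD29hi by the test, and Twist1 and Zeb1 had lower means there without passing it. Sox9 was high in all 4 groups. Adjusted p values are from limma with Benjamini-Hochberg adjustment over the 14598 tested genes, with a threshold of 0.05, and differences are CD29hi minus CD29lo on the log2 scale ± SE. In the contrast averaged over genotypes, 4 of the 9 tested members were higher in CD29hi, against 12.2% of all tested genes, and 2 were lower, against 10.8%. In all 4 CD29hi arrays 4 members lay above all 4 CD29lo arrays (13.2% of genes did), and 0 members lay below them (12.1% did). In WT alone 3 members were higher (3.96% of genes) and 0 lower (4.23%), and in KO alone 2 were higher (7.41%) and 0 lower (6.66%). The 3 gate contrasts share arrays and are not separate evidence. The members were named for basal identity and EMT, so the shares of all genes describe the list and test nothing. The filter works on the mean over all 8 arrays, so a gene that is dim in 1 gate was tested only because it was bright in the other.

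**Figure D1:**
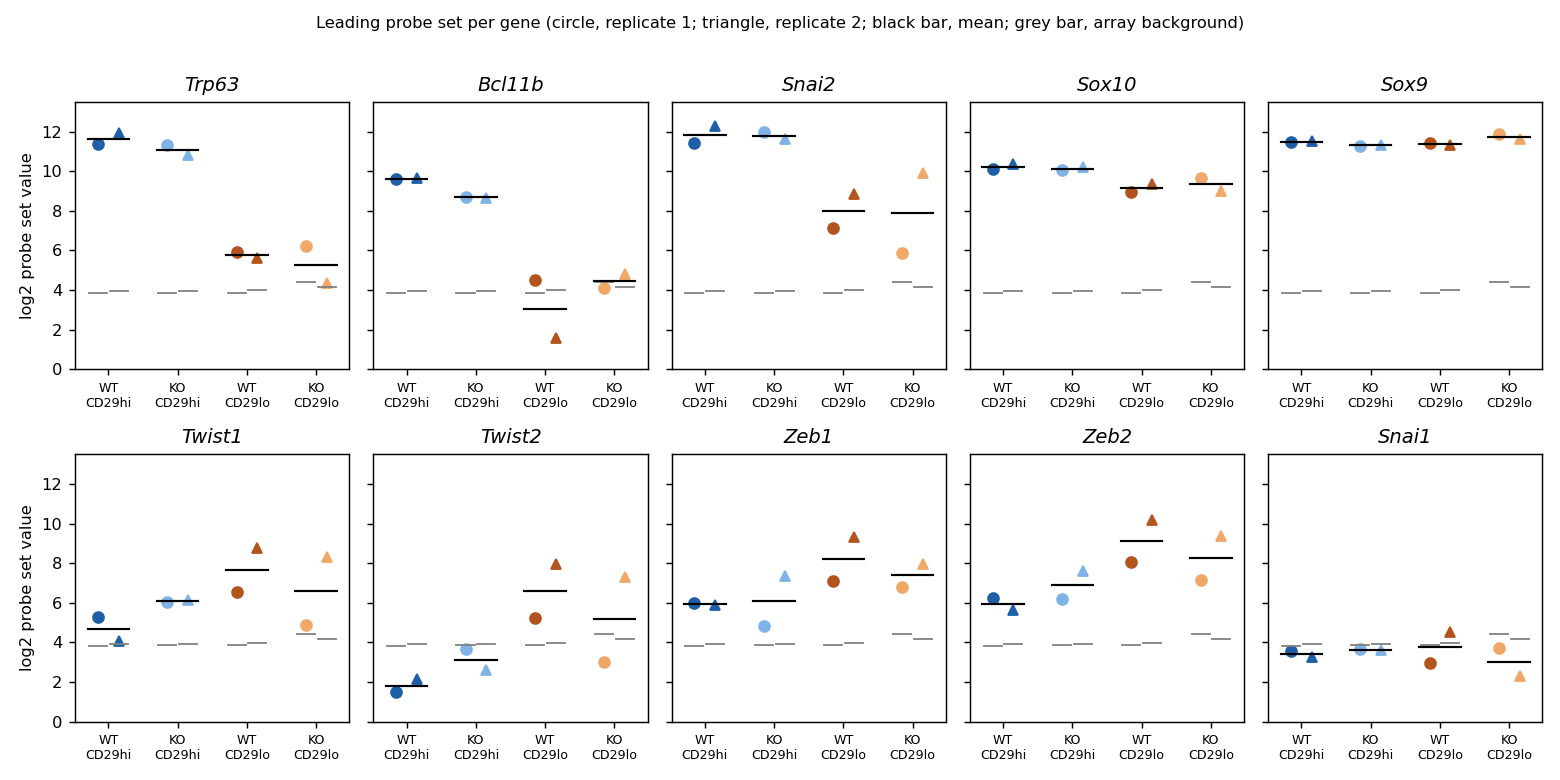
Log2 value of the leading probe set of each of the 10 genes (vertical axis) in the 4 groups (horizontal axis). Circles are replicate 1 and triangles replicate 2, black bars are group means of 2 arrays, and grey bars are each array's background. Trp63, Bcl11b, Snai2 and Sox10 are above CD29lo on all 4 CD29hi arrays, and Snai1 is above the background on 1 array only.

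Trp63 showed the clearest separation among the members. Its leading probe set read 11.36 and 11.94 (WT) and 11.30 and 10.80 (KO) in CD29hi, against 5.91 and 5.60 (WT) and 6.23 and 4.35 (KO) in CD29lo. All CD29hi arrays were above all CD29lo arrays, and the CD29lo arrays were still above background. Over both genotypes Trp63 was 56.8-fold higher in CD29hi, a difference of 5.83 ± 0.394 (limma adjusted p = 5.47e-05). It was 5.90 in WT (adjusted p = 0.000932) and 5.76 in KO (adjusted p = 0.000673). The order of the group means was WT CD29hi, KO CD29hi, WT CD29lo and KO CD29lo, and neighbours within a gate did not differ beyond their spread. The other 2 tested probe sets of Trp63 also passed, with differences of 5.66 and 4.53, and a further one was under the filter. In this bulk RNA, fewer cells of a type and less RNA per cell cannot be told apart.

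Bcl11b, a zinc finger repressor, followed the same pattern. The CD29hi arrays read 9.61 and 9.65 (WT) and 8.70 and 8.66 (KO) at the leading probe set. In CD29lo it read 4.52 and 1.60 in WT and 4.12 and 4.80 in KO, where WT replicate 2 and KO replicate 1 were not above background. The groups of the 2 gates did not overlap. The difference over both genotypes was 5.40 ± 0.567 (limma adjusted p = 0.00039), with 6.57 in WT (adjusted p = 0.0024) and 4.22 in KO (adjusted p = 0.0109). With all values raised to at least 4 it was 4.80, and 5.37 in WT, so its size is limited by the background in CD29lo. The WT difference was 5.11 without WT CD29lo replicate 2 and 8.03 without replicate 1, and it passed both times. Without KO CD29hi replicate 1 the KO value was 4.20 with adjusted p = 0.0722, and without replicate 2 it was 4.24 with adjusted p = 0.0557. The probe sets of Bcl11b did not give the same size. Of 4 tested, 3 passed in the averaged contrast, with differences of 5.40, 3.34 and 1.38. The fourth had 1.07 ± 0.378 and did not pass (adjusted p = 0.0788). The leading probe set was chosen at a mean of 6.46, and the one at 1.38 has a mean of 6.44, so the size of the Bcl11b difference rests on the choice of probe set.

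T cells also make Bcl11b, and their markers were uneven in these samples. Cd3e and Cd3g, chains of the T cell receptor complex, were above background on 0 of 8 arrays, and Cd3d, another chain, on 3. Cd247, also a chain of that complex, read 8.72 to 9.47 and was above background on 8 arrays, as was Cd5. Cd2 was above background on 7 arrays and Cd28 on 6. Of 5 tested T cell markers, 0 were higher and 0 lower in CD29hi, and the log2 of the list's summed values was 9.19 to 9.59 in CD29hi and 9.14 to 9.72 in CD29lo. The part of T cells in the Bcl11b values was not tested.

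Snai2, the zinc finger repressor also called Slug, was high in CD29hi and uneven in CD29lo. Its CD29hi arrays read 11.41 and 12.28 (WT) and 11.99 and 11.60 (KO). In CD29lo it read 7.13 and 8.83 in WT and 5.86 and 9.89 in KO, so the KO pair spans more than the distance between the genotypes. All CD29hi arrays stood above all CD29lo arrays. The averaged difference was 3.89 ± 0.786 (14.9-fold, limma adjusted p = 0.00926). It had nearly the same size in WT (3.87, adjusted p = 0.0755) and in KO (3.92, adjusted p = 0.0511), where neither passed alone in the main fit. The WT contrast passed when either KO CD29lo array was left out. Those arrays are not part of it, so the difference stayed at 3.87. Only the SE fell, from 1.11 to 0.523 without replicate 1 and 0.528 without replicate 2. Without KO CD29lo replicate 2 the KO difference was 5.94. Without KO CD29lo replicate 1 the KO difference was 1.91 (adjusted p = 0.108), so its size in KO rests on that array. Without WT CD29lo replicate 1 the WT difference was 3.02 (adjusted p = 0.325), and without replicate 2 it was 4.72 (adjusted p = 0.108). The second probe set gave 4.38 ± 0.807 in the averaged contrast and passed too. In that fit of every probe set it also passed in KO (limma adjusted p = 0.0315), as did the leading one (0.0481). Neither passed in WT (0.0688 and 0.0729). Without both CD29lo arrays numbered 2, the averaged difference of the leading probe set was 5.33 ± 0.268.

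Sox10, a SoxE factor also known from the neural crest, differed less between the gates. It read 10.11 and 10.34 (WT) and 10.07 and 10.19 (KO) in CD29hi, against 8.93 and 9.38 (WT) and 9.66 and 9.0 (KO) in CD29lo. The gates did not overlap, although Sox10 was well above background on every array. The averaged difference was 0.94 ± 0.191 (1.91-fold, limma adjusted p = 0.00987). In WT the difference of 1.07 passed narrowly (adjusted p = 0.0483), and in KO the difference of 0.80 did not (adjusted p = 0.0882). The WT call was lost without any 1 of the other arrays except those of KO CD29lo, with differences of 0.85 to 1.30 and adjusted p of 0.0707 to 0.231. The arrays concerned were both of WT CD29hi, both of WT CD29lo and both of KO CD29hi. The KO difference was 1.13 without KO CD29lo replicate 1 and passed (adjusted p = 0.0427), and it was 0.47 without replicate 2 (adjusted p = 0.323). Of 3 tested probe sets, 2 passed in the averaged contrast, with differences of 0.94 and 1.49, and the third had 0.81 (adjusted p = 0.0503). Schwann cells and melanocytes also make Sox10. Of their markers, Cdh19, Foxd3 and Tyr were above background on 0 of 8 arrays and Dct on 4, while Erbb3 (7.78 to 11.34), Mbp (8.89 to 10.63), Ngfr, Mitf and Kit were above it on 8. The log2 of the summed Schwann cell list was 9.85 to 10.01 in CD29hi and 11.57 to 12.04 in CD29lo, and that of the melanocyte list was 7.10 to 8.28 and 9.50 to 10.03. Erbb3 and Mbp were the brightest Schwann cell markers, and Kit and Mitf the brightest melanocyte markers, so the sums mainly follow these genes. Kit is also on the luminal list. The part of Schwann cells and melanocytes in the Sox10 values was not tested.

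Sox9, the SoxE factor known from luminal progenitors, was bright in every group. It read 11.45 and 11.50 (WT) and 11.29 and 11.33 (KO) in CD29hi, against 11.43 and 11.33 (WT) and 11.86 and 11.61 (KO) in CD29lo. The whole range was small, and KO CD29lo was the highest group. The averaged gate difference was -0.17 ± 0.0855 (limma adjusted p = 0.207). The difference was 0.10 in WT (adjusted p = 0.709) and -0.43 in KO (adjusted p = 0.0517), and the KO value was -0.55 without KO CD29lo replicate 2 and passed (adjusted p = 0.0437) and -0.30 without replicate 1 (adjusted p = 0.225). The second tested probe set read 10.95 and 10.56 in KO CD29lo and 10.07 to 10.40 on the other arrays, and 0 of the 2 passed.

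**Figure D2:**
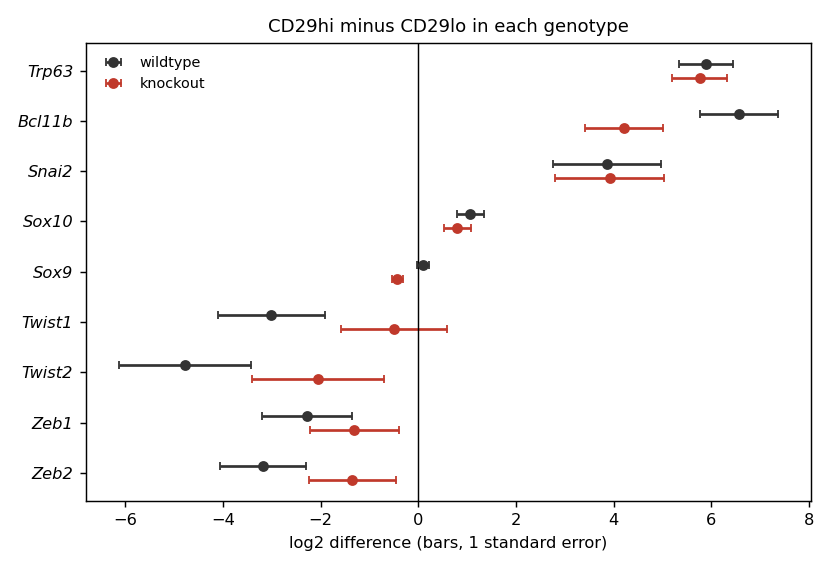
Log2 difference between the gates, CD29hi minus CD29lo (horizontal axis), for the 9 tested members (vertical axis), in WT (black) and KO (red). Bars are 1 standard error of the limma fit on 2 arrays per group, and the vertical line marks 0. Trp63 sits at 5.90 and 5.76, Bcl11b at 6.57 and 4.22, and the Twist and Zeb genes have negative values in both genotypes when all arrays are used.

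The Twist and Zeb genes ran the other way. Zeb2, a zinc finger homeobox repressor, read 6.26 and 5.62 (WT) and 6.20 and 7.61 (KO) in CD29hi, against 8.06 and 10.17 (WT) and 7.14 and 9.37 (KO) in CD29lo. One KO CD29hi array lay above one KO CD29lo array, so the gates overlapped. The averaged difference was -2.26 ± 0.627 (4.80-fold, limma adjusted p = 0.0338). In WT the difference was -3.18 (adjusted p = 0.0688) and in KO it was -1.35 (adjusted p = 0.362). Of the 4 tested probe sets of Zeb2, 3 passed in the averaged contrast, and all 4 had differences of -2.65 to -1.28. In WT alone 1 of the 4 passed (-3.86, limma adjusted p = 0.0418), and in KO alone 0 did.

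Twist2, a basic helix-loop-helix factor of mesenchyme and dermis, was below background on all 4 CD29hi arrays. It read 1.48 and 2.17 (WT) and 3.66 and 2.59 (KO) in CD29hi, against 5.25 and 7.96 (WT) and 3.03 and 7.32 (KO) in CD29lo, and KO CD29lo replicate 1 was not above background either. The averaged difference of the measured values was -3.42 ± 0.953 (limma adjusted p = 0.0345). With the WT CD29hi arrays raised to their background, CD29lo was at least 6.57-fold higher in WT, where the limma fit gave adjusted p = 0.0708. No such bound can be given in KO or over both genotypes, because KO CD29lo replicate 1 was not above background. The KO difference was -2.05 (limma adjusted p = 0.362).

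Twist1, the paralog of Twist2, read 5.27 and 4.07 (WT) and 6.03 and 6.16 (KO) in CD29hi, against 6.57 and 8.78 (WT) and 4.89 and 8.30 (KO) in CD29lo. The KO CD29lo pair lay on both sides of the KO CD29hi pair. The averaged difference was -1.75 ± 0.770 (limma adjusted p = 0.143), with -3.01 in WT (adjusted p = 0.148) and -0.50 in KO (adjusted p = 0.815). Zeb1, the paralog of Zeb2, read 5.99 and 5.90 (WT) and 4.81 and 7.34 (KO) in CD29hi, against 7.11 and 9.32 (WT) and 6.82 and 7.94 (KO) in CD29lo. Its averaged difference was -1.79 ± 0.650 (adjusted p = 0.0846), with -2.27 in WT (adjusted p = 0.193) and -1.31 in KO (adjusted p = 0.399). The second tested probe set of Zeb1 gave -2.04 ± 0.963 and did not pass.

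These calls moved with single arrays. The averaged Zeb2 call was lost without WT CD29hi replicate 1 or 2, KO CD29hi replicate 1, WT CD29lo replicate 2 or KO CD29lo replicate 2, with differences of -2.42 to -1.71 and adjusted p of 0.0727 to 0.117. The averaged Twist2 call was lost without any 1 array except the CD29lo replicates numbered 1, with differences of -3.68 to -2.34 and adjusted p of 0.0539 to 0.103. Conversely the averaged Twist1 difference passed without KO CD29lo replicate 1 (-2.61, adjusted p = 0.0175), and it was -0.90 without replicate 2 (adjusted p = 0.317). The averaged Zeb1 difference passed without KO CD29hi replicate 2 (-2.42, adjusted p = 0.028) or WT CD29lo replicate 1 (-2.34, adjusted p = 0.0451), and it was -1.24 without WT CD29lo replicate 2 (adjusted p = 0.221). The KO CD29lo arrays are not part of the WT contrast, and leaving out replicate 1 or 2 of them changed only the pooled spread there. In WT, Zeb2, Twist2 and Twist1 passed in those fits. Without WT CD29lo replicate 2 their WT differences were -2.12, -3.43 and -1.90, and that of Zeb1 was -1.17, with adjusted p of 0.286 to 0.589.

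In KO the Zeb1 difference was -0.04 without KO CD29hi replicate 1. For Twist1 and Twist2 the direction itself rested on KO CD29lo replicate 2. Without it the KO gate difference was 1.21 for Twist1 (adjusted p = 0.452) and 0.10 for Twist2 (adjusted p = 0.973), both with the sign turned, and -0.24 for Zeb2 (adjusted p = 0.908) and -0.75 for Zeb1 (adjusted p = 0.735). Without KO CD29lo replicate 1 these were -2.21, -4.20, -2.47 and -1.87, of which Twist2 passed (adjusted p = 0.0499). Without both CD29lo arrays numbered 2, the averaged differences were -1.18 for Zeb2 (adjusted p = 0.118), -1.67 for Twist2 (adjusted p = 0.0813), -0.35 for Twist1 (adjusted p = 0.624) and -0.96 for Zeb1 (adjusted p = 0.36). Trp63, Bcl11b, Snai2 and Sox10 kept their averaged calls in that setting, at 5.28, 4.84, 5.33 and 0.88.

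Markers of fibroblasts, which also make Twist and Zeb factors, moved with these genes. Of 15 fibroblast markers, 10 were lower in CD29hi over both genotypes and 1 was higher, with a median difference of -3.87. The log2 of their summed values was 12.64 and 13.06 (WT) and 13.01 and 13.20 (KO) in CD29hi, against 13.75 and 15.39 (WT) and 12.24 and 14.90 (KO) in CD29lo. The CD29hi sums mainly follow Postn (11.96 to 12.26) and Cxcl12 (10.39 to 11.45), which read 9.27 to 11.65 and 7.39 to 10.45 in CD29lo. The sum was lowest in KO CD29lo replicate 1, although Dcn read 10.54 there and 6.32 to 8.87 in CD29hi. The sum is thus not a like measure of fibroblasts in both gates. Pdgfra, a PDGF receptor of fibroblasts, read 9.90 and 11.54 in WT CD29lo, 7.70 and 11.00 in KO CD29lo, and 5.50 to 7.67 in CD29hi. Col1a1, a chain of fibrillar collagen, read 10.25 and 11.44 in WT CD29lo, 7.29 and 11.41 in KO CD29lo, and 4.0 to 7.04 in CD29hi. The defining markers were thus above background in all 8 arrays and brightest in the CD29lo replicates numbered 2. From the lowest to the highest summed level, the CD29lo arrays were KO replicate 1, WT replicate 1, KO replicate 2 and WT replicate 2. Twist1, Twist2, Zeb1 and Zeb2 rose in that same order, as did 10.1% of all tested genes. At their leading probe sets Trp63, Bcl11b, Sox9 and Sox10 did not, and neither did Snai2. Snai2 read 5.86, 7.13, 9.89 and 8.83 along that order, so it too was highest on the CD29lo arrays numbered 2. Its second probe set read 3.46, 4.48, 6.56 and 7.79 and rose in the full order. In CD29hi, 0 members followed the order of the fibroblast sum, as did 3.05% of genes. The part of the fibroblast signal in the Twist, Zeb and Snai2 differences was not tested.

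**Figure D3:**
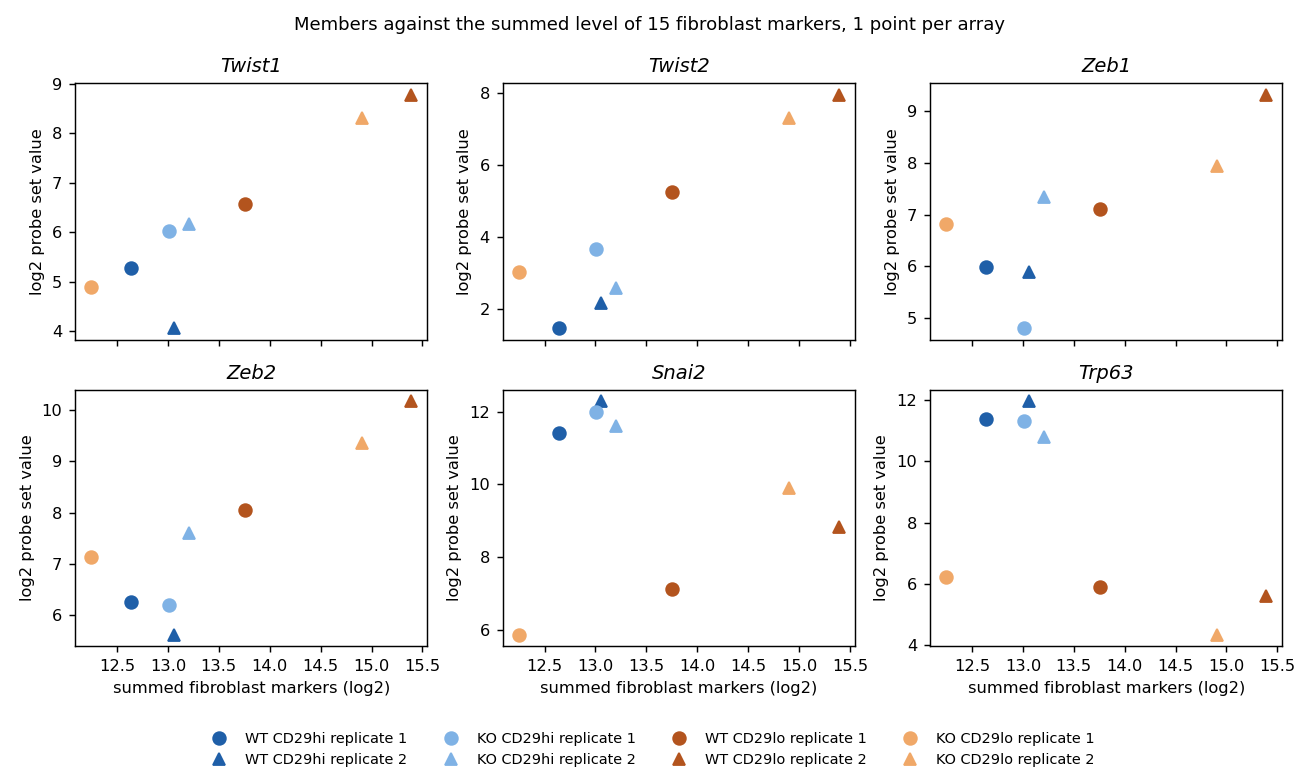
Log2 value of 6 members (vertical axes) against the log2 of the summed values of 15 fibroblast markers (horizontal axis), 1 point per array, coloured by group and shaped by replicate. In CD29hi the sum mainly follows Postn and Cxcl12. The 2 CD29lo arrays at 14.90 and 15.39 carry the highest values of Twist1, Twist2, Zeb1 and Zeb2, and Trp63 is between 4.35 and 6.23 on all CD29lo arrays.

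Promoter windows were looked at because the deleted factor binds DNA. RefSeq windows of build GRCm38.p6, from 250 bases before to 50 after a start, were given for 5 members with 8 windows: Twist2, Zeb2, Snai1, Twist1 and Bcl11b. Trp63, Snai2, Sox9, Sox10 and Zeb1 had no entry. The letters TTGCNNAA, a core of the C/EBP recognition motif, were searched on both strands and are found in 10.8% of 32851 mouse windows of the same length. Twist2 holds 2 matches and 1 of the 4 Zeb2 windows holds 1, while the windows of Snai1, Twist1 and Bcl11b hold 0. The Snail and Zeb E-box CAGGTG, which is itself a case of the wider E-box CANNTG, was found in 1 member window, that of Snai1. It is found in 20.2% of all windows. CANNTG was found in that same member window alone, against 72.3% of all windows. The windows with a C/EBP core are shown because Twist2 and Zeb2 are the members with lower signal in CD29hi by the test. Whether the matches have any part in that gate difference was not tested. The signal of Cebpb itself had a gate difference of 0.095 in WT (limma adjusted p = 0.886). Twist2 lies at chr1:91801211-91801510 on the plus strand and this Zeb2 window at chr2:45117393-45117692 on the minus strand. Both are written 5′ to 3′ on the gene's strand, with the TTGCNNAA matches in capitals.
Twist2: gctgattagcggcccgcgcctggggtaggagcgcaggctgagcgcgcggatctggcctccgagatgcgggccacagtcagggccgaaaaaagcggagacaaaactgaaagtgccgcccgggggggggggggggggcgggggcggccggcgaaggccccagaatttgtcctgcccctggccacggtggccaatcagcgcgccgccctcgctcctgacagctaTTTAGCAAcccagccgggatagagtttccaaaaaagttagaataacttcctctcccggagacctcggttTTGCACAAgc
Zeb2: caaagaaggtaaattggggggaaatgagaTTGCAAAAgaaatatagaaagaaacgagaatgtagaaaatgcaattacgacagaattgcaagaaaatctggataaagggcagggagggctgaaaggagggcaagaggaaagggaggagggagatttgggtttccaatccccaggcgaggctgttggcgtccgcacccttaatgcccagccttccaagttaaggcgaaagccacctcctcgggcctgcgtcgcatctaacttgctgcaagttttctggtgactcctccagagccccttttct
A match is a run of letters and not a measured binding site. Neither gene passed the test between genotypes, as given below, and the arrays hold no measure of C/EBPb binding.

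Snai1, the founding member of the Snail family, was at the background. It read 3.56 and 3.27 (WT) and 3.65 and 3.61 (KO) in CD29hi, against 2.96 and 4.54 (WT) and 3.73 and 2.29 (KO) in CD29lo. WT CD29lo replicate 2 alone was above background. Its mean of 3.45 was just under the filter at 3.51, and in a fit with no filter the averaged gate difference was 0.14 ± 0.500 (limma adjusted p = 0.888).

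**Figure D4:**
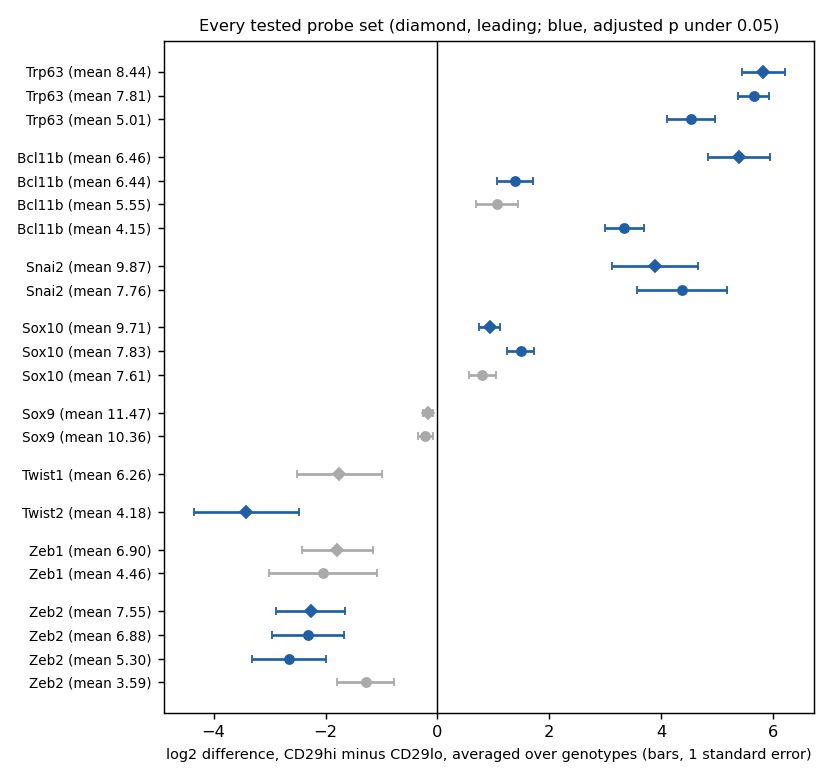
Log2 gate difference averaged over genotypes, CD29hi minus CD29lo (horizontal axis), for every tested probe set of the members (vertical axis, with its mean over 8 arrays). Bars are 1 standard error, diamonds are leading probe sets, and blue marks an adjusted p under 0.05. All probe sets of a gene lie on 1 side of 0, and those of Bcl11b spread from 1.07 to 5.40.

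Genes that p63 is known to act on in epithelia were more often higher than lower in CD29hi. Whether p63 acts on them in these cells was not tested. Of 17 tested, 10 were higher in CD29hi over both genotypes and 1 was lower, with a median difference of 1.24 against 0.01 for all tested genes. The keratins Krt5 (5.33) and Krt14 (4.36), the hemidesmosome collagen Col17a1 (5.05) and the laminin chain Lamb3 (3.41) led this list, and 6 of the 17 are also on the basal list, namely Krt5, Krt14, Col17a1, Itga6, Itgb4 and Jag2. The basal list, led by Krt5, the smooth muscle genes Acta2 (4.80) and Mylk (4.12), and Krt17 (4.08), had a median of 4.24. The luminal list, with the keratins Krt19 (-2.43) and Krt7 (-1.98) and the receptor and forkhead factors Pgr (-3.02) and Foxa1 (-5.10) in front, had a median of -2.58.

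Of 20 junction genes, some of which Snail and Zeb factors are known to repress, 10 were lower in CD29hi and 1, the desmosome plaque gene Dsp, was higher, with a median difference of -0.95. The tight junction genes Ocln (-3.74), Cldn7 (-3.20), Cldn3 (-2.98) and Marveld3 (-2.20) had the smallest p, and E-cadherin itself, Cdh1, had -0.97 (limma adjusted p = 0.000215). Of 15 tested mesenchymal genes known to rise in EMT, 2 were higher and 1 was lower, with a median of 0.03. Those were the cadherin Cdh2 (3.50), the matrix protein Tnc (2.34) and the calcium-binding S100a4 (-1.60). Vim, which encodes vimentin, had 0.02 (adjusted p = 0.982). Among the tested Snail, Twist and Zeb members, Snai2 was the one called higher in CD29hi. Whether Snai2 or another member acts on the junction or mesenchymal genes in these cells was not tested.

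Of 14 tested paralogs and partners of the members, 3 were higher in CD29hi and 1 was lower, with a median of 0.15. Sox8, the other SoxE gene, had 3.76 (limma adjusted p = 0.000532), Sox4 had 0.97, and Tcf4, an E protein that pairs with Twist factors, had 0.79. The forkhead gene Foxc1 had -1.97. The remaining marker lists of other cells gave few calls: 0 of 10 endothelial, 1 of 6 pericyte (Notch3, lower), 1 of 8 macrophage (Cd68, higher), 2 of 3 Schwann cell (Erbb3 and Mbp, lower), 1 of 3 melanocyte (Kit, lower, also a luminal marker) and 0 of 4 adipocyte markers. Endothelial Pecam1 and Cdh5 were above background on 8 of 8 arrays, macrophage Csf1r on 8 at 4.51 to 5.48, and macrophage Adgre1 on 1.

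Between genotypes, no member passed the test. In CD29hi 0 of 9 members passed (0.0137% of tested genes did), in CD29lo 0 (0.0137%), averaged over the gates 0 (0.0685%), and for the difference between both genotype contrasts 0 (0% of genes). These are limma counts with adjusted p under 0.05. At an unadjusted p under 0.05, 1145, 975, 1353 and 722 genes passed in these 4 contrasts, of which 0, 1, 0 and 1 were members, Sox9 both times. The smallest adjusted p of a member was 0.837, 0.658, 0.741 and 0.961. All of the lists named here also had 0 genes called in each of these contrasts. So few genes were called at all that this does not show level lists. In CD29lo 15 of 15 fibroblast markers were under 0 (median -1.16), and 14 of 15 mesenchymal genes (median -1.13). Of the 17 genes known as p63 targets, 16 were above 0 (median 0.405), against a median of -0.06 for all tested genes. In CD29hi these medians were 0.09, 0.39 and -0.07, against -0.015. Genes of a list share arrays and are not separate evidence. With 2 arrays a group the intervals are wide, and a p that misses the threshold does not show equal levels.

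Differences below are KO minus WT on the log2 scale, with the 95% interval from the limma fit. Trp63 had -0.60 in CD29hi (-1.88 to 0.68) and -0.47 in CD29lo (-1.74 to 0.81). Averaged over gates it had -0.53 (-1.43 to 0.37), the lowest value of the 9 members at the leading probe sets. Its other 2 tested probe sets gave -0.99 and -0.63 in CD29hi but 0.62 and 0.59 in CD29lo, and -0.18 and -0.02 averaged, so the sign in CD29lo differs between probe sets. Bcl11b had -0.95 in CD29hi (-2.79 to 0.89), where both KO arrays were below both WT arrays. In CD29lo it had 1.40 (-0.44 to 3.24), with WT replicate 2 at 1.60 and not above background. Without that array the value was -0.06, so the sign rests on it. A second Bcl11b probe set gave -1.03 in CD29hi, and -0.03 in CD29lo where it was under background on all arrays. The Bcl11b probe set with a mean of 6.44 gave -0.15 in CD29hi and -0.295 in CD29lo. The last one gave -0.68 in CD29hi and 0.725 in CD29lo. In CD29hi the KO and WT arrays overlapped at both of these. The size in CD29hi and the sign in CD29lo thus differ between probe sets.

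Snai2 and Sox10 had small differences at their leading probe sets, with intervals of unequal width. Snai2 had -0.05 in CD29hi (-2.60 to 2.50) and -0.11 in CD29lo (-2.65 to 2.44). Sox10 had -0.10 in CD29hi (-0.71 to 0.52) and 0.18 in CD29lo (-0.44 to 0.79). The Sox10 intervals are among the narrowest of the members, and those of Snai2 hold changes of several fold in either direction. The second Snai2 probe set gave -0.63 in CD29hi and -1.125 in CD29lo. The remaining Sox10 probe sets gave -0.255 and 0.02 in CD29hi, and 0.77 and 0.08 in CD29lo. At 0.77 both KO arrays were above both WT arrays, and none of these values passed the limma test.

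At their leading probe sets, the Twist and Zeb genes had wider spreads and opposite signs in the 2 gates. Twist1 had 1.43 in CD29hi (-1.07 to 3.92) and -1.08 in CD29lo (-3.58 to 1.42). Twist2 had 1.30 (-1.79 to 4.39), with all CD29hi arrays below background, and -1.43 (-4.52 to 1.66). Zeb2 had 0.97 (-1.07 to 3.0) and -0.86 (-2.89 to 1.17), and Zeb1 had 0.13 (-1.98 to 2.24) and -0.84 (-2.94 to 1.27). The second tested probe set of Zeb1 was positive in both gates, at 0.76 and 0.38. In CD29lo the fibroblast sum was lowest on a KO array and highest on a WT array, and its part in these signs was not tested. The fitted difference between the genotype contrasts was 2.73 for Twist2 (-1.64 to 7.10) and 2.51 for Twist1 (-1.03 to 6.04).

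The signs in CD29lo depended on single arrays. With 1 array left out, the CD29lo difference ran from -1.41 to 0.48 for Trp63, -2.12 to 1.91 for Snai2, -0.06 to 2.86 for Bcl11b and -0.16 to 0.51 for Sox10. It ran from -2.79 to 0.63 for Twist1, -3.58 to 0.72 for Twist2, -1.94 to 0.27 for Zeb1 and -1.98 to 0.26 for Zeb2. Of the 9 members, Sox9 kept its sign, at 0.23 to 0.48. Without both CD29lo arrays numbered 2, the difference was 0.32 for Trp63, -1.27 for Snai2, -0.40 for Bcl11b, 0.73 for Sox10 and 0.43 for Sox9. It was then -1.68 for Twist1, -2.22 for Twist2, -0.29 for Zeb1 and -0.92 for Zeb2. In CD29hi the sign turned with 1 array left out for Zeb1 (-1.14 to 1.40), Snai2 (-0.49 to 0.39) and Sox10 (-0.21 to 0.02). None of these values passed the limma test.

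Sox9 had the only unadjusted p under 0.05 among the members. It had -0.17 in CD29hi (-0.44 to 0.11) and 0.36 in CD29lo (0.08 to 0.63), with limma adjusted p = 0.658. In CD29hi both KO arrays were below both WT arrays and in CD29lo both were above. KO and WT did not overlap in either gate and in opposite directions for 4.72% of genes. The difference between the genotype contrasts was -0.52 ± 0.171 (-0.91 to -0.13, limma adjusted p = 0.961). The second probe set gave -0.13 and 0.58.

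Overlap was also counted by array, at the leading probe sets. In CD29hi, KO did not overlap WT for 5 of the 9 members, Twist1 and Twist2 above and Trp63, Sox9 and Bcl11b below, against 39.5% of all tested genes. All CD29hi arrays of Twist2 were below background, so its separation there rests on values under the background. In CD29lo it was 1 member, Sox9, against 34.3%. For 0 members did the 4 KO arrays stand apart from the 4 WT arrays, against 3.24% of genes.

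**Figure D5:**
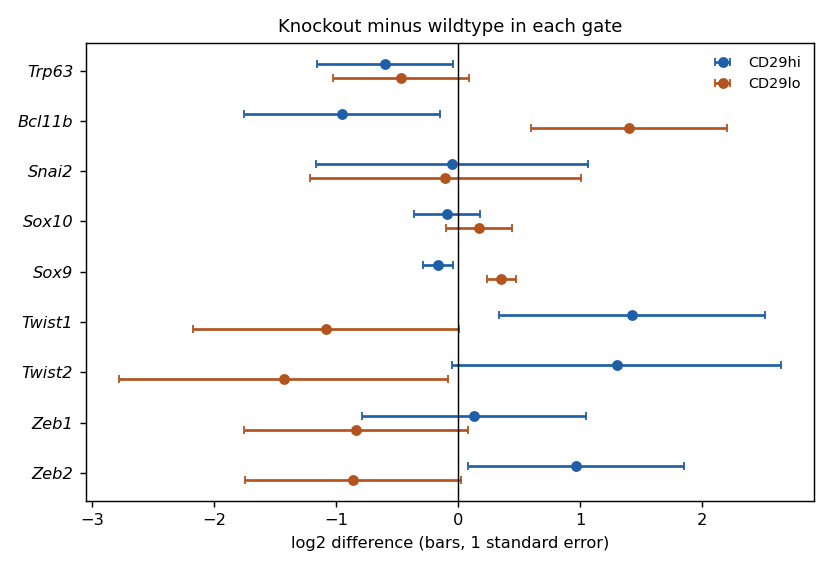
Log2 difference KO minus WT (horizontal axis) for the 9 tested members (vertical axis), in CD29hi (blue) and CD29lo (brown). Bars are 1 standard error of the limma fit on 2 arrays per group, and the vertical line marks 0. Values run from -1.43 to 1.43, and no member passed the test in either gate.

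For each member, the 3 tested genes of highest Pearson r over the 8 arrays were listed as a description, with no p. The arrays share 4 groups and 2 gates, so for a gene that differs between the gates r is largely set by the gate. Trp63 was nearest to Suco (0.995), the gap junction gene Gja1 (0.994) and the basal keratin Krt17 (0.994). Bcl11b was nearest to Nnat (0.994), Atxn1 (0.992) and Grik3 (0.984), and Snai2 to Igfbp2 (0.988), Traf7 (0.985) and Samd4b (0.984). Sox10 was nearest to Trnp1 (0.993), Prkg1 (0.991) and 2310047K21Rik (0.986). The neighbours of Twist2 were the collagen Col15a1 (0.989), the prostaglandin receptor Ptger3 (0.983) and the secreted Wnt-binding Sfrp4 (0.979), and those of Zeb2 were Peg10 (0.993), Gfpt2 (0.992) and Mcoln2 (0.988). Twist1 was nearest to Nfkbil1 (0.986), Gps2 (0.979) and Pamr1 (0.979), and Zeb1 to Klf2 (0.975), Rnf32 (0.972) and Rasgef1a (0.968). Sox9, which differs little between the gates, had the lowest values, with Cdk6 (0.952), Gm5481 (0.940) and Cd55b (0.940).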

How the data were processed

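The deposited table holds a log2 value for each probe set on each array. The scale was read from the values, and the authors' normalization method is not given in the sources used here. Per the labels' protocols, RNA was isolated with the Arcturus PicoPure kit, amplified with a NuGEN FFPE kit and labelled with biotin for Affymetrix arrays. No further normalization was applied. Probe sets with 1 gene in the platform annotation (2016) were used, 34958 of 45101 (932 carry several genes, 9211 none), and 34754 of them matched a RefSeq gene ID. Genes with a mean under 3.51, the 25th percentile of probe set means, were not tested.

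The 4 groups were fitted with limma 3.58.1 in R 4.3.3 (lmFit, then eBayes with trend, 4 residual and 4.31 prior degrees of freedom), two-sided, and the fit was tested on simulated data. Figures used matplotlib 3.10.9. The number of arrays limits the precision, and p values measure the spread between these replicates. The members, gene lists and tests were chosen with earlier results of these data known. Named are the members, their 3 most similar genes, up to 4 genes of smallest p per list, defining markers of other cells and Cebpb; Cdh1, Vim, Dsp, and the further markers of T cells, Schwann cells, melanocytes and other cells were added after their values were seen. Alternatives tried were the normalization, filter, probe set, variance, array weights, samples, block, values raised to 4, and arrays left out.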

Additional observations from a re-analysis of the deposited data

Results flagged for a closer look

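Sox9 had opposite genotype differences in the gates, with no overlap between KO and WT arrays in either. KO minus WT was -0.165 in CD29hi and 0.355 in CD29lo on the log2 scale. The test of the difference between both gave -0.52 (limma adjusted p = 0.961), so it did not pass over all genes. Non-overlap in opposite directions was seen for 4.72% of the tested genes. Without KO CD29lo replicate 1 the difference was -0.40 (adjusted p = 0.836), and without replicate 2 it was -0.65 (adjusted p = 0.513).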

How the results depend on the processing

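Over the 9 tested members, 7 contrasts and all alternatives run, 1161 of 1226 values kept their side of the threshold and their direction if called, 30 lost a call, 35 gained one and 0 called values changed sign; 63 uncalled values changed sign. Trp63 passed in each gate contrast under every alternative run, and the averaged calls of Bcl11b, Snai2 and Sox10 held under all of them. The averaged calls of Twist2 and Zeb2 were also lost with no variance trend (adjusted p = 0.0747 and 0.075, limma) and with values raised to at least 4 (0.109 and 0.0515). Members called in the WT gate contrast numbered 3, and 5 with only the arrays compared, with the replicate block and without both CD29lo arrays numbered 2; it was 2 with no filter, with no variance trend and with values raised to 4, and leaving out 1 array gave 2 to 7. The WT Sox10 call was lost in those 3 fits (0.0545, 0.107 and 0.0567), with the replicate block (0.0544) and with only the arrays compared (0.0511). In the KO gate contrast the number was 2, and 4 under a stricter filter (50th percentile) and with the replicate number within each genotype as a random block, assuming that such arrays share a set of glands, which the labels do not say; leaving out 1 array gave 1 to 4. The averaged number was 6, and 4 to 7 in the alternatives. All genotype contrasts stayed at 0. The replicate numbers were not taken to pair the samples: the labels do not tie them to the sets of glands, and the replicate differences of 2 groups correlated at -0.0169 to 0.281 over probe sets. The fibroblast sum was nevertheless higher on the replicate numbered 2 in each group. With the replicate block, 7 members passed in the averaged gate contrast, Zeb1 being added (adjusted p = 0.0209). The block also added Snai2 in WT (0.0272) and KO (0.0188), and Twist2 (0.0371) and Zeb2 (0.0222) in WT. A fit on only the arrays compared was not run for averaged contrasts and the difference. Bcl11b in CD29lo, Twist2 in CD29hi and Snai1 lie at the background, which limits what their values can show.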
